A study of Mus musculus with 2 samples.

Results

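The liver breaks down most amino acids of the diet and the body, and the enzymes described here carry out those steps and the methyl-group (one-carbon) reactions tied to them. A list of 44 genes, chosen with earlier results of these data known, was matched by gene symbol to the probe sets of a short-oligonucleotide expression array. Of these, 42 genes with 66 probe sets were found among the 18193 genes that the array names. Amt and Sds were not analysed here. The members were divided into 7 pathway groups: 8 aromatic, 4 histidine, 8 sulphur, 3 glycine and one-carbon, 11 branched-chain, 5 aminotransferase, and 3 lysine or proline genes. The study set male 129SvEJ mice lacking the nuclear receptor PPARα (pparalpha -/-) against wild-type males of the same strain. Mice of both genotypes were 8 weeks old and ate chow with 0.2% fenofibrate, a drug that activates PPARα, for 7 days. Each genotype is represented by 1 array, hybridised with a pool of liver RNA of 3 animals, so the spread between mice was not measured and no value below has a test or a replicate check. Both groups received the drug, so a difference between genotypes without drug and a difference in the response to it cannot be told apart. The labels do not state how the gene was inactivated, so whether a Ppara probe set lies in the disrupted part is unknown.

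Amino acid breakdown starts with removal of the amino group, which aminotransferases pass to 2-oxoglutarate, and continues with oxidation of the carbon skeleton to intermediates of the citric acid cycle, to ketone bodies or to glucose precursors. Methionine follows a route of its own: it becomes S-adenosylmethionine, the methyl donor of the cell, then homocysteine, which is either methylated again or passed on to cysteine and taurine. Hepatocytes hold most of these enzymes in large amounts, and their transcripts are known to respond to glucagon, glucocorticoids and protein intake. PPARα, encoded by Ppara, drives genes of fatty acid oxidation in fasting and after fibrates.

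Signals are linear array units that the authors scaled to a target of 1000. Ratios are Ppara-null over wild type on the log2 scale, so a positive value means a higher signal in the null pool and 1 means 2-fold. A floor was set at the median signal of each array, 269.4 in null and 287.8 in wild type, and lower signals were raised to it. All 42 genes lay above the floor on both arrays. A gene is represented by its brightest probe set. Ppara itself gave 3414 in null and 7957 in wild type at its brightest probe set, and its other 2 probe sets gave 50.6% and 36.0% of the wild-type signal.

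Across the array, 2.80% of the 13041 measured genes had a signal in null at least 2-fold higher and 4.99% at least 2-fold lower. Among the 42 amino acid genes 2 were at least 2-fold higher, namely Prodh and Got1, and 0 were at least 2-fold lower. The shares past 1.5-fold over all measured genes were 11.0% higher and 14.8% lower, and among the members 3 were higher (Agxt was the third) and 0 lower. The members' ratios were mostly small and mostly on one side of 0. Of the 42 genes 35 had a log2 ratio above 0 and 7 below, whereas 49.6% of all measured genes lay above 0. The members' median was 0.26 (quartiles 0.07 and 0.43), and the median of all measured genes was -0.0046. The members that were lower in null were Csad, Gcdh, Got2, Pccb, Bckdhb, Kmo and Hgd, with log2 ratios between -0.43 and -0.02.

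These directions hold for the authors' scaling. The hybridization controls, bacterial and phage transcripts added to the samples in fixed amounts, are read by 18 probe sets. All 18 were brighter in null, with a median log2 ratio of 0.38. Probe sets of the same transcript are not independent, so their agreement is not 18 separate checks. Scaling the arrays to these controls moves the median of all measured genes to -0.38 and the members' median to -0.12, with 15 members above 0 and 27 below. Because this scaling subtracts the same amount from every gene, the distance of the members from all genes, 0.27, is fixed by construction. The ratio also moved with brightness. Among the other genes with a mean signal of 64000 or more, 81.3% of 112 genes were above 0 with a median of 0.25, and the 6 members in that range had a median of 0.41. Between 4000 and 16000 the median was 0.04 over 1537 other genes and 0.27 over 22 members. With the trend in signal removed, the members' median was 0.18 and 31 of 42 were above 0. The plot of ratio against signal shows the members on the right-hand side of the cloud, among the brighter genes.

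**Figure D1:**
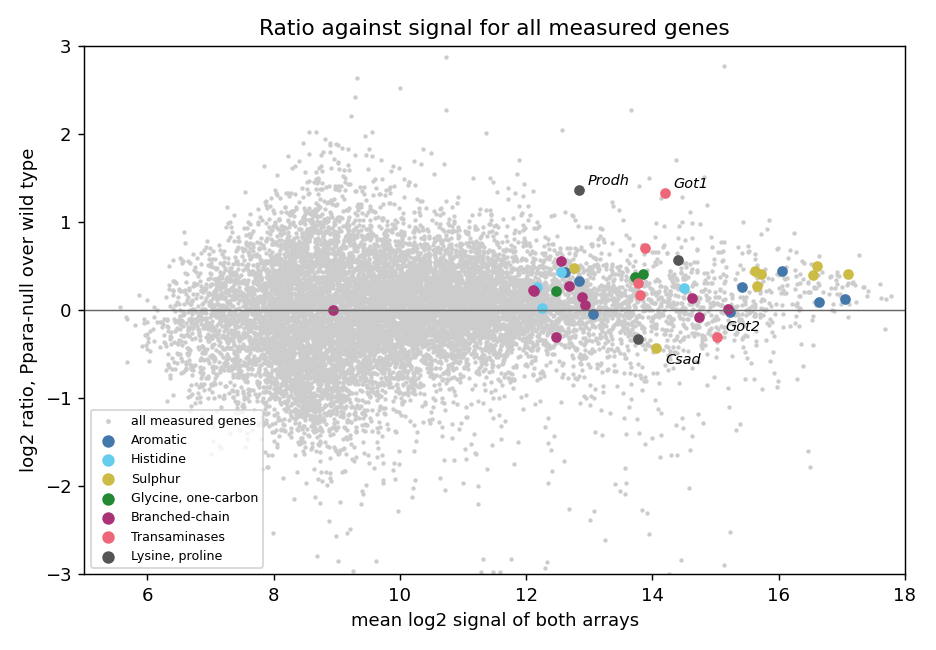
Log2 ratio of Ppara-null over wild type (y axis) against the mean log2 signal of both arrays (x axis), 1 point per gene, with all measured genes in grey and the 42 amino acid genes coloured by pathway. Most coloured points lie a little above 0 under the deposited scaling (35 of 42, or 15 of 42 after scaling to the hybridization controls), and 17 genes fall outside the plotted range.

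Markers of hepatocytes lay on the same side as the members. Under the deposited scaling all 7 measured hepatocyte markers had log2 ratios above 0 (median 0.22, highest 0.39), and their summed signal was 1379425 in null and 1184999 in wild type. All 7 had signals above 64000, a range in which genes outside the members had a median of 0.25. Control scaling lowers each ratio by 0.38, which is more than the markers' median. In the Kupffer cell and macrophage list, 6 of 7 measured markers were above 0 with a median of 0.62, and the summed signal of all 8 was 22047 in null and 15191 in wild type. Endothelial markers summed to 23832 in null and 20550.3 in wild type (6 of 8 above 0), and stellate cell markers to 34349 in null and 28051 in wild type (5 of 7 above 0). The part of cell makeup in the members' ratios was not tested, and in bulk RNA fewer cells of a type and less RNA per cell cannot be told apart. No marker was at 0, but Marco of the macrophage list and Col1a1 of the stellate list lay under the floor on both arrays. The cholangiocyte, lymphocyte and neutrophil lists were dim. Of their 5, 7 and 4 genes on the array, 3, 3 and 1 were measured, and the others lay under the floor on both arrays. With those included, the summed signals were 1277, 1630.2 and 664.7 in null and 932.7, 1899 and 826.4 in wild type. The 3 erythroid markers summed to 7759 in null and 4716 in wild type (2 of 3 above 0). Most of that sum was Alas2, at 7033 in null and 4190 in wild type. Slc4a1 exceeded the floor in null only, and Hba-a1 in wild type only, with a log2 ratio of -0.30. Among all these markers, Cd5l of the macrophage list was past 2-fold higher in null as deposited (2.12-fold). Pecam1 of the endothelial list, under the floor in null, was at least 2.36-fold lower there. Ptprc of the lymphocyte list was 2.26-fold lower in null.

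The 2 genes past 2-fold belong to different routes. Prodh, the mitochondrial proline dehydrogenase that begins proline breakdown, gave 11718 in null and 4569 in wild type, which is 2.56-fold higher in null (log2 ratio 1.36). Got1, the cytosolic aspartate aminotransferase, gave 29701 in null and 11818 in wild type, 2.51-fold higher in null (1.33). Each has a single probe set, so no second probe set checks it. After scaling to the hybridization controls both stood just under 2-fold, with log2 ratios of 0.98 for Prodh and 0.95 for Got1. With the signal trend removed they stood at 1.31 and 1.27.

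The RefSeq windows around the start sites of these genes (250 bases before to 50 bases after, build GRCm38.p6) are shown. Prodh and Got1 were chosen because they had the largest differences among the members at the brightest probe set. Dimmer probe sets of Gpt and Uroc1 differed more. The Prodh window is chr16:18089141-18089440 and the Got1 window chr19:43524556-43524855, both read from the minus strand, 5′ to 3′. Capitals mark AGGTCA, the core hexamer that many nuclear receptors recognise.
Prodh: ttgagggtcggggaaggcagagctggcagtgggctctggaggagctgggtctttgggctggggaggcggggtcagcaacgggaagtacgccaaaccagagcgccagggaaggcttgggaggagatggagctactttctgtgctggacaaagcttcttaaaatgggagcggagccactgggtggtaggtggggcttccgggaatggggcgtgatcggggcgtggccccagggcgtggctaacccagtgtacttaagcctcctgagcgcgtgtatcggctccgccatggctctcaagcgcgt
Got1: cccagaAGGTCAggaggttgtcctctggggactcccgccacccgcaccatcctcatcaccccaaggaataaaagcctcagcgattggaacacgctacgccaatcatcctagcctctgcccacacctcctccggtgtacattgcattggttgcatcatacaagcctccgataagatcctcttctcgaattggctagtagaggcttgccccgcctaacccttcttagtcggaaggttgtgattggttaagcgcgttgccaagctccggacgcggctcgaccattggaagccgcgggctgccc
The Got1 window holds 1 AGGTCA, which begins 244 bases before the start site, and the Prodh window holds none. Both windows are rich in G and C, at 63.0% for Prodh and 57.3% for Got1. Promoter windows were matched for 37 of the 44 listed genes, 42 windows in all, since some genes have more than 1 start site. AGGTCA on either strand was found in 16 of these 42 windows (38.1%) and in 16.3% of 32851 windows of all genes. A pair of such hexamers in the same direction with 1 base between them were found in 0 of the 42 member windows and in 0.0396% of all. TGTTCT, a hexamer of the glucocorticoid receptor, was in 5 of 42 (11.9%) and in 19.0% of all. TGACGTCA (1.79% of all), TTGCGCAA (0.183%) and CAAAGTCCA (0.475%) were in 0 of the 42. A match is a description of letters, and no binding was measured.

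Sulphur amino acid genes lay close together, with 1 exception. Of 8 genes 7 were higher in null, by log2 ratios of 0.27 to 0.50, and Csad was lower. The group median was 0.41, 0.29 with the signal trend removed, and 0.03 after scaling to the hybridization controls. Gnmt, Ahcy and Bhmt had signals above 64000 on both arrays, a range in which genes outside the members had a median of 0.25. None passed 1.5-fold at its brightest probe set. The 3 genes of the methionine cycle that make the methyl donor, use it and split what remains of it moved within a narrow range. Mat1a, the liver enzyme that makes S-adenosylmethionine, gave 56980.4 in null and 47264 in wild type (log2 ratio 0.27, or -0.11 after control scaling). Gnmt, which uses the methyl group to turn glycine into sarcosine, gave 162095 in null and 121723 in wild type (0.41). Ahcy, which splits S-adenosylhomocysteine into homocysteine and adenosine, gave 109859 in null and 83369 in wild type (0.40). Homocysteine then has 2 ways out, and genes of both were higher in null. Bhmt, which methylates it with betaine, gave 118264 in null and 83482 in wild type (0.50), the highest ratio of the group at the brightest probe set as deposited. Cbs, which joins it to serine, gave 8173 in null and 5854 in wild type (0.48), and its other probe set gave 3549 in null and 2073 in wild type (0.78). With the signal trend removed Cbs (0.43) lay above Bhmt (0.37). Cth, which releases cysteine, gave 58582 in null and 43123 in wild type (0.44).

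The last steps of the route went in opposite directions. Cdo1, the dioxygenase that oxidises cysteine to its sulfinic acid, gave 61979 in null and 46725 in wild type (log2 ratio 0.41). Csad, which decarboxylates that product on the way to taurine, gave 14690.1 in null and 19725 in wild type, which is 1.34-fold lower in null (-0.43). Csad was the lowest of all 42 members, and it stayed below 0 under all 10 alternatives of processing. Most of these could not have turned its sign. Csad has a single bright probe set, so the choices of floor and probe set left its ratio unchanged, and control scaling could only lower it. With the signal trend removed Csad was at -0.48, and after quantile normalization at -0.41. Without Csad, a gene left out after its value was seen, the other 7 had log2 ratios with an SD of 0.08 across genes.

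**Figure D2:**
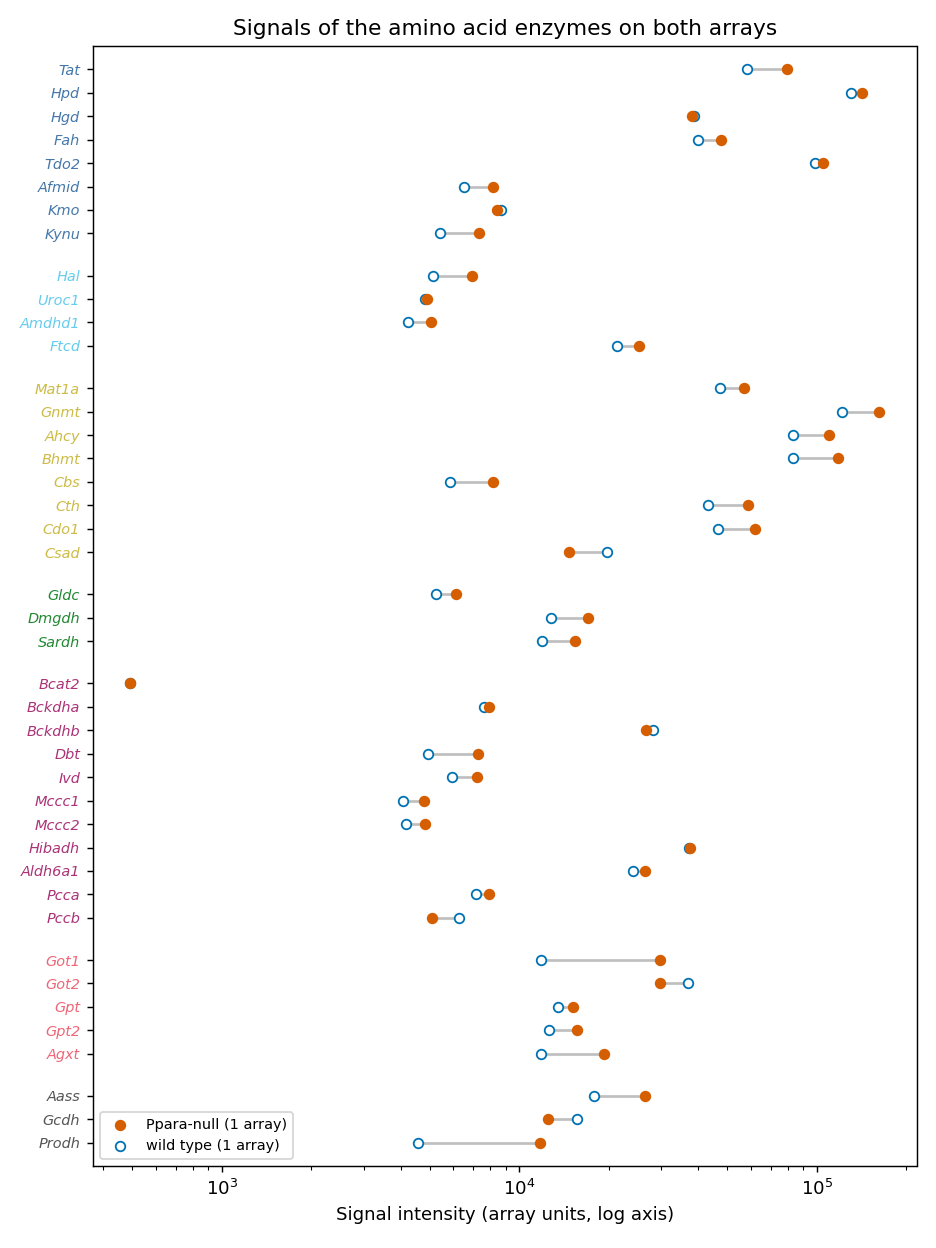
Signal intensity (log axis, array units) of the 42 amino acid genes at their brightest probe set, with 1 filled point for the Ppara-null array and 1 open point for the wild-type array, grouped by pathway from top to bottom. The pair of points is widest for Got1 and Prodh, and the open point lies clearly on the right for Csad, Got2, Gcdh and Pccb. Positions of different genes cannot be compared as transcript levels, because probe sets differ in brightness.

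Glycine and one-carbon genes were higher in null at all 3 genes found (median log2 ratio 0.37, or -0.0055 after control scaling). Dmgdh, the mitochondrial flavoenzyme that demethylates dimethylglycine, gave 17029.5 in null and 12845 in wild type (0.41). Sardh, which demethylates sarcosine in the next step, gave 15467 in null and 11937 in wild type (0.37), and its other probe set gave 8654 in null and 4952 in wild type (0.81). Gldc, the decarboxylase of the mitochondrial glycine cleavage system, gave 6116 in null and 5242 in wild type (0.22). Dmgdh takes up the product of Bhmt, and Sardh the product of Gnmt, so these ratios lie next to those of the methionine cycle. None of the 3 genes passed 1.5-fold at its brightest probe set.

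Aminotransferases differed widely among themselves, with log2 ratios between -0.30 and 1.33 and an SD of 0.61 across the 5 genes. Their median was 0.31, or -0.068 after control scaling, and 0.70 when all probe sets of each gene were summarised by their median or when _x_at and _s_at probe sets were left out. Cytosolic and mitochondrial aspartate aminotransferase, which work together in the malate-aspartate shuttle, lay on opposite sides of 0. While Got1 was 2.51-fold higher in null, the mitochondrial Got2 gave 29853 in null and 36836 in wild type (-0.30) at its brightest probe set and 7274 in null and 9602 in wild type (-0.40) at the second. Its other 2 probe sets were under the floor on both arrays. The sign of Got2 was the same in all 10 alternatives, and so was that of Got1, but most of these could not have turned it. The choices of floor left both ratios unchanged, and the choice of probe set could not move Got1, which has a single one. Control scaling could only lower Got2. With the signal trend removed Got2 was at -0.38 and Got1 at 1.27. Agxt, which transfers the amino group of alanine to glyoxylate and so removes it, gave 19257.5 in null and 11819 in wild type, 1.63-fold higher in null (0.70, or 0.33 after control scaling).

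The alanine aminotransferases were closer to 0. Gpt2, the mitochondrial form, had 4 probe sets above the floor, with log2 ratios of 0.31, 0.28, 0.17 and 0.12, and gave 15628 in null and 12595 in wild type at the brightest. Gpt, the cytosolic form, gave 15179 in null and 13497 in wild type (0.17) at its brightest probe set. The other Gpt probe set gave 1178 in null and 198.4 in wild type, below the floor, so that it was at least 4.09-fold higher in null. The brighter Gpt probe set is of the _s_at kind, whose probes can match more than 1 transcript.

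Aromatic amino acid genes were split between small positive ratios and values close to 0. Of 8 genes 6 were above 0, 0 passed 1.5-fold at the brightest probe set, and the median was 0.19, or -0.18 after control scaling. In tyrosine breakdown, Tat, the aminotransferase that starts the route, gave 79342.5 in null and 58149.7 in wild type (log2 ratio 0.45). Hpd, the dioxygenase that follows, gave 142415 in null and 130624 in wild type (0.12). Hgd, which opens the ring of homogentisate, gave 38227 in null and 38787 in wild type (-0.02), and a dim second probe set gave 527.5 in null and 181.6 in wild type, at least 1.83-fold higher in null. Fah, the last enzyme, which splits fumarylacetoacetate, gave 47794.5 in null and 39806 in wild type (0.26). With the median over probe sets the ratio of Hgd was 0.43, so its place among these genes depends on the probe set.

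In tryptophan breakdown by the kynurenine route, Tdo2, the liver dioxygenase of the first step, gave 105370 in null and 98538 in wild type (log2 ratio 0.10) and 0.46 and 0.20 at its other probe sets. Afmid, which hydrolyses formylkynurenine, gave 8189 in null and 6503 in wild type (0.33). Its next 2 probe sets had ratios of 0.61 and 1.07, and the larger came from 1282 in null and 612.0 in wild type. A further dim probe set, at 275.5 in null and 86.6 in wild type, gives no fold, since the null signal lies under the floor of the wild-type array. Kmo, the hydroxylase in the outer mitochondrial membrane, gave 8435 in null and 8711 in wild type (-0.05). Kynu, which cleaves kynurenine and its hydroxylated form, gave 7326 in null and 5411 in wild type (0.44). Hpd and Tdo2 turned negative when the signal trend was removed and after quantile normalization, so their signs depend on the scaling.

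The 4 histidine genes were all above 0, with a median log2 ratio of 0.25, or -0.12 after control scaling, and 0 passed 1.5-fold at the brightest probe set. Hal, which removes ammonia from histidine, gave 6934 in null and 5148 in wild type (0.43). Uroc1, the urocanase of the second step, gave 4901 in null and 4811 in wild type (0.03) at an _s_at probe set, but 2687 in null and 787.1 in wild type at the other, 3.41-fold higher in null (1.77). Amdhd1, the imidazolonepropionase, gave 5064 in null and 4222 in wild type (0.26), with 0.03 at its other probe set. Ftcd, which passes the formimino group to folate and so links the route to one-carbon metabolism, gave 25376 in null and 21382 in wild type (0.25). The probe sets of Uroc1 thus disagreed, and its value depends on which is read.

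Branched-chain amino acid genes had the lowest median of the 7 groups under the deposited scaling. With the signal trend removed their median was 0.10, and the aromatic median was lower, at 0.08. As deposited, 9 of the 11 branched-chain genes were above 0, and 0 passed 1.5-fold in either direction. Their median log2 ratio was 0.13, or -0.25 after control scaling. Bcat2, the mitochondrial aminotransferase of the first step, was dim at 493.5 in null and 492.7 in wild type (0.00). The branched-chain keto acid dehydrogenase makes the second step irreversible, and its subunits had unequal ratios. Dbt, the transacylase core, gave 7269.5 in null and 4947.5 in wild type (0.56), while the E1 subunits gave 7942 in null and 7627 in wild type for Bckdha (0.06) and 26627 in null and 28138.5 in wild type for Bckdhb (-0.08). Dbt was the highest of the 11 genes.

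In the leucine branch, the 3 measured genes had like ratios. Ivd, which oxidises isovaleryl-CoA, gave 7205 in null and 5967 in wild type (log2 ratio 0.27). The subunits of the biotin enzyme methylcrotonyl-CoA carboxylase gave 4792 in null and 4083 in wild type for Mccc1 (0.23) and 4842 in null and 4158 in wild type for Mccc2 (0.22). A dim second probe set of Mccc1 gave 467.4 in null and 515.8 in wild type (-0.14). In valine breakdown, Hibadh, the 3-hydroxyisobutyrate dehydrogenase, gave 37532 in null and 37334 in wild type (0.01), and Aldh6a1, the methylmalonate semialdehyde dehydrogenase, gave 26403 in null and 24084.5 in wild type (0.13). Propionyl-CoA carboxylase, where the valine and isoleucine routes meet, had its subunits on opposite sides of 0 as deposited, and both below 0 after control scaling. Pcca, the biotin-carrying subunit, gave 7927 in null and 7154 in wild type (0.15), and Pccb gave 5098.5 in null and 6284 in wild type (-0.30). A second Pcca probe set, at 208.6 in null and 349.7 in wild type, was at least 1.30-fold lower in null.

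The lysine genes also lay on opposite sides of 0. Aass, the bifunctional enzyme that starts lysine breakdown through saccharopine, gave 26464 in null and 17784 in wild type (log2 ratio 0.57). Gcdh, the mitochondrial dehydrogenase that handles glutaryl-CoA further down, gave 12460.2 in null and 15627 in wild type (-0.33). Gcdh belongs to the acyl-CoA dehydrogenase family, as Ivd does, and under the deposited scaling the 2 had opposite signs (after control scaling Ivd was at -0.11 and Gcdh at -0.71). With Prodh, the lysine and proline group had a median of 0.57, or 0.19 after control scaling.

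**Figure D3:**
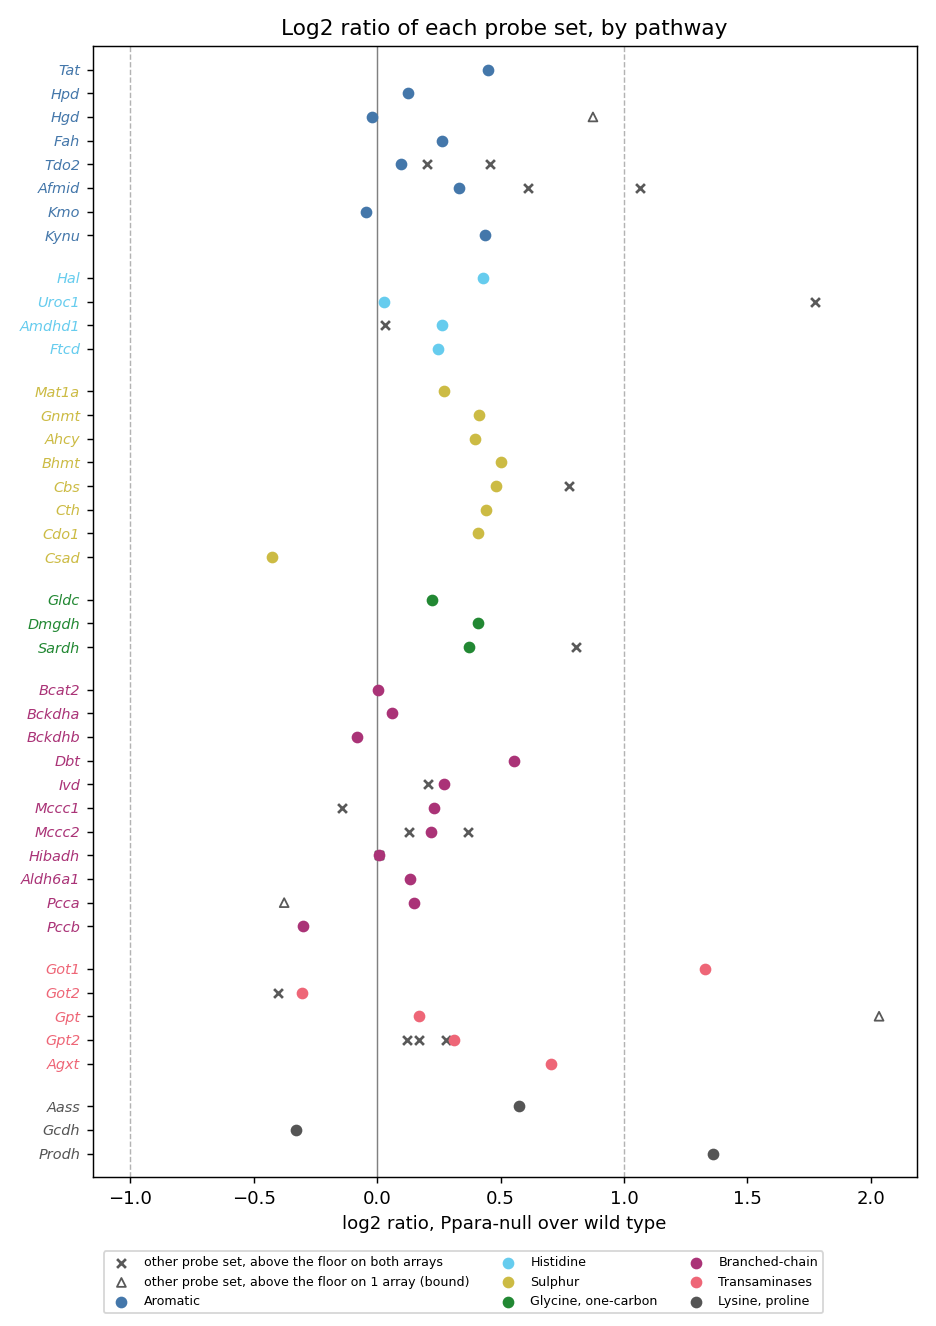
Log2 ratio of Ppara-null over wild type for each probe set of the 42 genes, with the brightest probe set as a coloured point, other probe sets as crosses where both arrays exceeded the floor, and as open triangles (bounds) where 1 array did. Dashed lines mark 2-fold, which 5 probe sets passed on the right under the deposited scaling and 0 on the left.

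The scatter between probe sets of a gene can be read from these arrays. Of 12 members with 2 or more probe sets that exceeded both floors, 11 had the same sign at each under the deposited scaling, Mccc1 being the exception. The share over 3917 genes on the whole array was 48.9%. Agreement in sign depends on where 0 lies, and it was not counted after control scaling. The members lay mostly above 0 and all genes were centred near 0, so this contrast does not measure how reliable the members are. The pooled SD of log2 ratios between probe sets of a gene was 0.36 over the members and 0.42 over all genes, which is larger than the ratios of most members. Of the 63 member probe sets measured on at least 1 array, 5 were at least 2-fold higher in null (Prodh, Got1 and 1 each of Uroc1, Gpt and Afmid) and 0 at least 2-fold lower. The same shares over all 22323 measured probe sets were 3.15% higher and 4.65% lower.

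**Figure D4:**
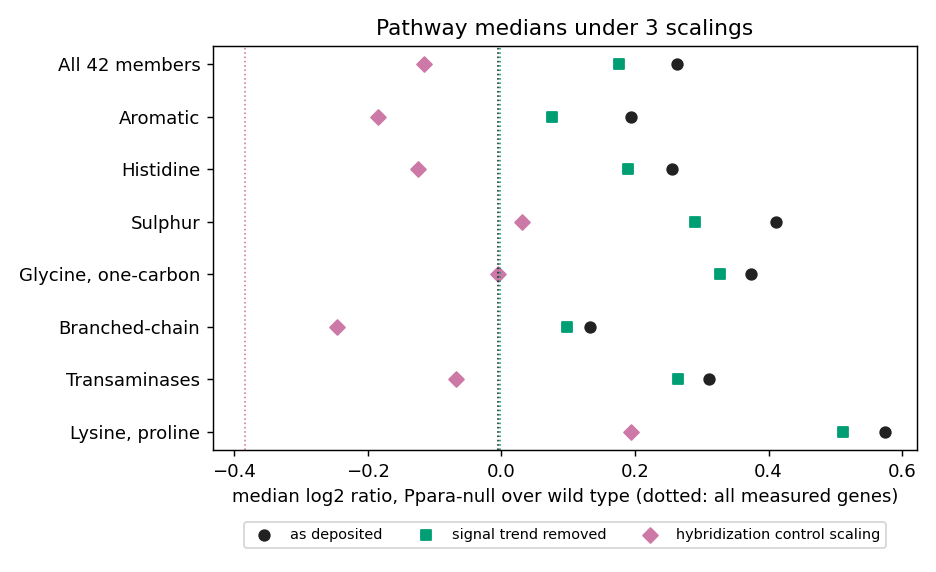
Median log2 ratio of Ppara-null over wild type for all 42 genes and for each pathway group, under the deposited scaling (circles), with the signal trend removed (squares) and after scaling to the hybridization controls (diamonds). Dotted lines give the median of all measured genes. Control scaling moves the diamonds and their dotted line, at -0.38, by the same amount. Their distance from that line is therefore that of the circles by construction. Of the 8 diamonds 6 are below 0.

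By place in the cell, a division made after the values were seen, 19 of 21 cytosolic members were above 0 with a median log2 ratio of 0.33. Of 20 mitochondrial members 15 were above 0, with a median of 0.18. After control scaling 10 cytosolic members were above 0 (median -0.05) and 4 mitochondrial members (median -0.20). Agxt was left out of this division. The 6 members with a mean signal of 64000 or more are all cytosolic, and other genes that bright had a median of 0.25. Control scaling cannot change the gap between the medians, and they were not compared with the signal trend removed. Of the 7 members below 0, Gcdh, Got2, Pccb, Bckdhb and Kmo are mitochondrial, and Csad and Hgd are cytosolic. Within the mitochondrion, Prodh was the highest and Gcdh the lowest.

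Ratios of other genes of the same pathways spread to both sides of 0. The list medians that follow are for the deposited scaling, and control scaling lowers each by 0.38. Of 133 listed genes, which include amino acid carriers and regulators, 115 were measured, with a median log2 ratio of 0.04, 65 above 0, 3 at least 2-fold higher in null and 4 at least 2-fold lower. The list of further aromatic genes had a median of -0.05 over 11 genes, and Kyat3, a kynurenine aminotransferase, gave 6208 in null and 24147.5 in wild type, 3.89-fold lower in null. Nnmt, which spends S-adenosylmethionine on nicotinamide, gave 10658 in null and 532.2 in wild type, 20.0-fold higher in null, in a further sulphur and methyl list with a median of 0.11 over 19 genes. Psph, the last enzyme of serine synthesis, gave 444.4 in null and 963.7 in wild type, 2.17-fold lower in null, in a glycine and folate list with a median of 0.01 over 17 genes.

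The lists nearest to glutamate and transport held 3 more genes past 2-fold. Etnppl, the phospholyase that breaks down phosphoethanolamine, gave 23075 in null and 8696 in wild type, 2.65-fold higher in null, and its other probe set had a log2 ratio of 0.46, in a lysine, proline and glutamate list with a median of 0.02 over 14 genes. Slc1a2, a glutamate transporter, gave 3840.0 in null and 1359 in wild type, 2.83-fold higher in null, but its second probe set had a ratio of -0.23. Slc25a22, a mitochondrial glutamate carrier, gave 1229 in null and 3142 in wild type, 2.56-fold lower in null. The 18 amino acid carriers had a median of 0.31 with 12 above 0, and the 17 measured further genes of branched-chain breakdown had a median of -0.03 with 7 above 0 and 0 past 2-fold. The 19 measured regulators had a median of 0.14, and Ppara was the 1 gene among them past 2-fold.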

How the data were processed

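The deposited file holds 1 signal intensity per probe set for each of 2 arrays. Per the labels' description, these came from the statistical algorithm of Affymetrix, with each array scaled over all its probe sets so that the target was 1000; with 2% of values trimmed at each end the mean was 1000.01 on both arrays. The labels' settings text is identical for both arrays and was not used. No software version or detection call was used.

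Of 45037 probe sets that are not controls, 34945 had 1 symbol in the platform annotation of 2016, and RefSeq gene identifiers changed 0 symbols. Signals were floored at each array's median, a gene was its brightest probe set, and 13041 genes reached the floor on 1 array or both. With 1 pooled sample per genotype there is no test and the number of arrays limits the precision; genes were called at 2-fold. All members could be named, with Ppara and other pathway genes at least 2-fold apart. The members and lists were chosen with earlier results of these data known. Code ran in Python 3.11.15 with statsmodels 0.14.6 (lowess, span 0.3) and was tested on simulated data. In all, 10 alternatives of scaling, floor and probe set choice, and thresholds of 1.5-fold and 3-fold, were tried.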

Additional observations from a re-analysis of the deposited data

How the results depend on the processing

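Scaling to the hybridization controls, which lowers every log2 ratio by 0.38, gave medians of -0.12 for all members, -0.18 for aromatic, -0.12 for histidine, -0.25 for branched-chain, -0.0055 for glycine and one-carbon and -0.068 for aminotransferase genes, each positive as deposited, and turned the sign of 20 of 42 members. The 2 genes at least 2-fold higher in null became 0 under it and 0 at 3-fold, and 4 without _x_at and _s_at probe sets, where Gpt and Uroc1 joined; the cause of the other changes was not tested. The choice of probe set moved single genes further: without _x_at and _s_at probe sets Gpt was at 2.03 and Uroc1 at 1.77, and the aminotransferase median was 0.70, as it was with the median over probe sets. That last setting gave medians of 0.35 for aromatic, 0.34 for histidine and 0.044 for branched-chain genes, and put Hgd at 0.43. Quantile normalization turned 3 members (Hpd, Tdo2, Uroc1) and put Hgd at 0, removal of the signal trend 4 (Hibadh, Hpd, Tdo2, Uroc1) and the median over probe sets 2 (Hgd, Pcca). Centring on the median, the other floors and no floor turned 0. The count of members at least 2-fold lower was 0 under every alternative of scaling, floor, probe set choice and threshold. Over all genes, 35.9% of 2-fold calls were higher in null as deposited, 46.7% with the signal trend removed, 50.5% with floors at the brightest Bacillus control and 5.84% under control scaling. No paired analysis was possible because each genotype has 1 array.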
